A study of Mus musculus with 6 samples.

Results

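Mitochondrial ribosomal proteins are the proteins that, with ribosomal RNA made inside the organelle, build the mitochondrial ribosome (mitoribosome). They were taken here as all genes whose mouse symbol is Mrpl or Mrps followed by a number and at most 1 letter from a to d. The rule found 78 genes among the 22186 rows of the deposited table, 49 named for the large subunit (Mrpl) and 29 for the small subunit (Mrps). Expression was measured by RNA sequencing of polyadenylated RNA from primary adipose-derived stromal cells (ADSCs), fibroblast-like cells of fat, from mice of WT genotype. The control group was ADSCs with no co-culture (n = 3), and the other group was ADSCs that had shared their culture with Treg, or regulatory T cells, for 48 h (Treg co-culture, n = 3). Libraries 1, 2 and 3 of both groups carry the batch labels 1, 2 and 3. Co-culture with any other cell type is not among the groups, so what is due to Treg and what to co-culture as such cannot be told apart. The labels give neither the sex, strain and age of the mice nor how ADSCs and Treg were separated.

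The mitoribosome translates the few proteins that mitochondrial DNA (mtDNA) encodes, all of them subunits of the oxidative phosphorylation complexes. Its proteins are encoded in the nucleus, made by cytosolic ribosomes and imported, so each mitoribosome needs the output of both genomes. Some of its proteins have a counterpart in bacterial ribosomes, and others are found only in mitochondria. Names do not always follow place: Mrps18a and Mrps30 sit in the large subunit, and Mrps36 is now known as a component of the 2-oxoglutarate dehydrogenase complex.

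Values were deposited as TPM, reads per gene length scaled to a total of 1000000 in each library, which leaves the depth unknown and allows no interval for counting error. The number of genes listed at 0 ran from 6566 to 7073 over the libraries. Of the 11 T cell and Treg markers, 7 (Cd2, Cd3d, Cd3e, Cd3g, Cd4, Ctla4 and Il2ra) were at 0 in all 6 libraries, and the list summed to 3.25 to 3.76 TPM in the controls, against 3.63 to 4.17 TPM in the co-culture libraries. All 12 stromal markers were detected, with sums of 2806 to 2865 and 2817 to 2842 TPM. The near-equal sums hide changes both ways, since 4 of these markers passed the test described below as higher and 6 as lower. Treg co-culture library 1 stood apart, with 23.9 TPM of cardiomyocyte and 82.8 TPM of hepatocyte markers against at most 1.20 and 0.482 TPM in the other libraries. Without that library, 17 of the 78 members passed the test in the higher direction, against 17.1% of all genes in the same fit. Of these 17 members, 15 were among the 22 described next.

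Transcripts of mitochondrial ribosomal proteins were modestly more abundant after Treg co-culture. Of the 78 members, 22 rose, 1 fell and 55 did not pass the test (limma on log2(TPM + 1), Benjamini-Hochberg over all 12405 genes tested, adjusted p below 0.05). Among all genes tested, 19.8% rose and 18.0% fell (37.8% in either direction), against 28.2% and 1.28% of the members. The larger share of rises among members depends on the threshold. At an adjusted p below 0.01, 8 of the 78 members rose, a smaller share than the 13.1% of all genes. None of the members fell there, against 11.4% of all genes. All 78 members passed the filter of a mean of 1 TPM, none was at 0 in any library, and their mean levels ran from 9.60 TPM (Mrpl19) to 130.0 TPM (Mrpl30). The median log2 fold change of the members was 0.10, against 0.0015 for all genes, and 66 of 78 (84.6%) were above 0, against 50.3% of all genes. Changes were small: the 22 rises ranged from 8.61% (Mrpl10) to 32.6% (Mrpl12) between group means, and no member differed by 1.5-fold or more.

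The groups did not overlap for 24 members that were higher and 2 that were lower after co-culture, against 25.3% and 24.0% of all genes tested (49.3% in either direction). Of the 22 members that rose, 19 had no overlap between groups and all 22 were higher in each of the 3 batches. As these 22 were selected by the test on the same libraries, both counts follow largely from that selection and add no separate support. Whether the libraries of a group are separate animals or cultures is not in the labels, so the p-values cover only library-to-library spread, possibly technical. Skeletal myoblast markers (a sum of 991.7 to 1056 TPM in the controls and 2868 to 2917 TPM in the co-culture libraries, 8 of 8 higher) and cell cycle markers (590.0 to 611.1 and 886.5 to 916.1 TPM, 10 of 10 higher) moved with the members, and their part in the difference was not tested. In bulk RNA, fewer cells of a type and less RNA per cell cannot be told apart.

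**Figure D1:**
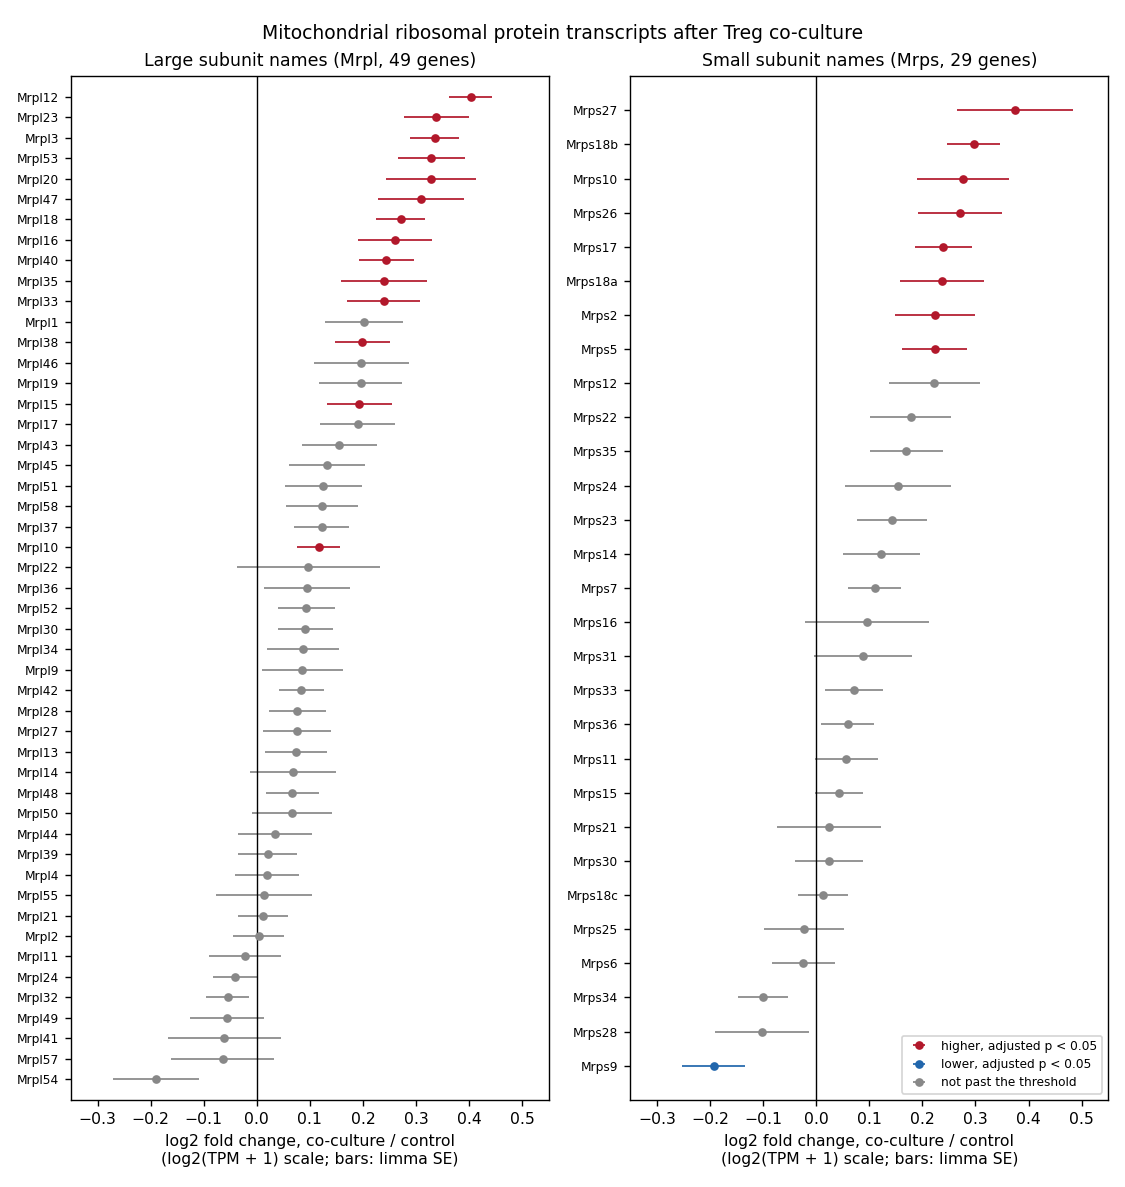
Log2 fold change of each member (x axis, log2(TPM + 1) scale, Treg co-culture over control) with its standard error, for genes named Mrpl and Mrps. Most points lie to the right of 0 (66 of 78), from -0.19 for Mrps9 to 0.40 for Mrpl12, and the members that passed the test are coloured.

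Summed over the large-subunit genes, the level was 2200, 2187 and 2176 TPM in the controls and 2381, 2369 and 2426 TPM in the co-culture libraries. The group means were 2188 ± 11.7 and 2392 ± 29.8 TPM (SD, n = 3 each), a difference of 9.36%. The small-subunit sum was 1156, 1216 and 1219 TPM in the controls and 1303, 1311 and 1272 TPM after co-culture, or 1197 ± 35.7 and 1296 ± 20.6 TPM (SD, n = 3 each), a difference of 8.23%. In both sums the lowest co-culture library was above the highest control. The ratio of the large-subunit to the small-subunit sum was 1.83 ± 0.0645 in controls and 1.85 ± 0.0528 after co-culture (SD, n = 3), with overlapping groups, so the difference in ratio was smaller than the spread between libraries.

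**Figure D2:**
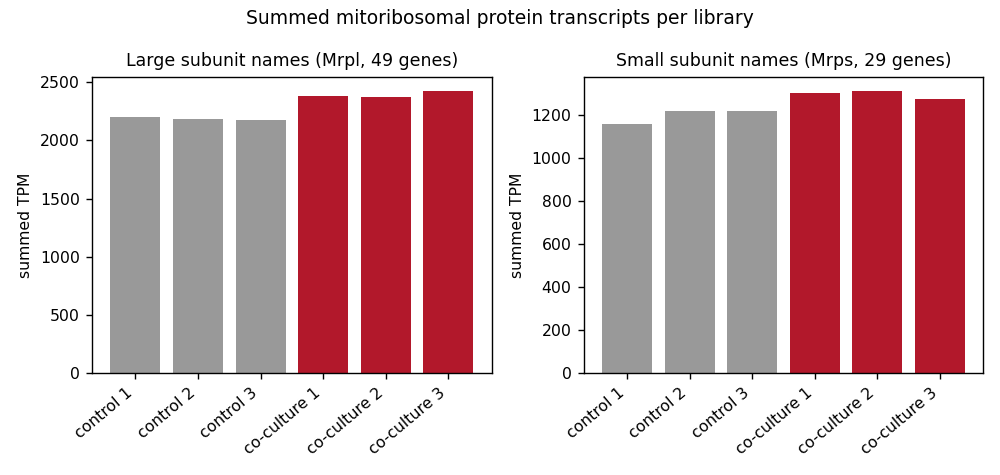
Summed TPM (y axis) of the Mrpl genes and of the Mrps genes in each of the 6 libraries, as bars from 0 with the controls in grey and the co-culture libraries in red. In each sum the 3 co-culture libraries lie above the 3 controls, by 9.36% for Mrpl and 8.23% for Mrps between means.

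The same direction was found within batches. For Mrpl genes the median log2 difference between the paired libraries was 0.09, 0.12 and 0.18 in batches 1, 2 and 3, and for Mrps genes it was 0.09, 0.10 and 0.09, while for all genes it lay between -0.0016 and 0.011. Of the Mrpl genes, 25 of 49 (51.0%) were higher in every batch, as were 14 of 29 Mrps genes (48.3%) and 31.9% of all genes tested. With batch as a block, 20 members rose, 19 of them among the 22, and 2 fell. The block ended the calls of Mrpl10 (adjusted p = 0.0745), Mrpl15 (0.0513) and Mrpl35 (0.0619), and it added a rise of Mrps22 (0.0369) and a fall of Mrpl54 (0.0145).

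The large subunit joins amino acids and holds the tunnel through which the new chain leaves. Of the 49 genes named for it, 14 rose, none fell and 35 did not pass the test, with a median log2 fold change of 0.09. Mrpl12, the stalk protein that meets translation factors and is also known to bind the mitochondrial RNA polymerase, measured 66.4, 65.2 and 61.7 TPM in the controls and 84.0, 84.7 and 87.7 TPM after co-culture. The groups were far apart relative to their spread, 64.4 ± 2.44 against 85.5 ± 1.96 TPM (SD, n = 3 each). At 0.40 on the log2 scale (SE 0.041, limma adjusted p = 3.66e-05), its fold change was the highest among members. Mrpl10, which anchors the stalk to the subunit, rose less, from 56.1, 56.1 and 54.5 TPM to 60.2, 58.8 and 62.0 TPM, at a log2 fold change of 0.12 (limma adjusted p = 0.0439). Mrpl11, another protein at the base of the stalk, measured 15.5, 15.6 and 15.8 TPM in controls and 15.0, 16.4 and 14.8 TPM after co-culture, within the spread of the libraries. Mrpl53, a mitochondria-specific protein, rose from 42.3, 43.5 and 49.2 TPM to 59.5, 53.4 and 57.2 TPM, at a log2 fold change of 0.33 (SE 0.063, limma adjusted p = 0.0024).

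Mrpl3 is a core protein of the bacterial type, known from inherited cardiomyopathy. It measured 58.8, 60.6 and 62.5 TPM in the controls and 80.1, 72.5 and 77.6 TPM after co-culture. Every co-culture library exceeded every control, at a log2 fold change of 0.33 (SE 0.047, limma adjusted p = 0.000311). Other core proteins with bacterial counterparts that rose were Mrpl20 (0.33), Mrpl16 (0.26), Mrpl35 (0.24) and Mrpl15 (0.19, all log2 fold changes). Mrpl33, one of the more abundant members, measured 130.2, 112.4 and 104.9 TPM and then 140.9, 129.1 and 139.2 TPM. It passed the test at 0.24 (limma adjusted p = 0.0200), although control library 1 lay above co-culture library 2.

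Around the exit of the tunnel, Mrpl23 and Mrpl47 rose. Mrpl23 measured 42.3, 48.6 and 46.6 TPM in controls and 57.0, 62.1 and 55.5 TPM after co-culture, without overlap, at a log2 fold change of 0.34 (SE 0.061, limma adjusted p = 0.00162). Mrpl47 had 18.5, 23.6 and 20.3 TPM and then 25.6, 25.8 and 26.2 TPM, at a log2 fold change of 0.31 (limma adjusted p = 0.0126). Their neighbours there had other values, since Mrpl24 was at -0.04, Mrpl22 at 0.10, Mrpl17 at 0.19 and Mrpl45, which attaches the ribosome to the inner membrane, at 0.13 on the log2 scale, none past the threshold. In the central protuberance, the crest of the subunit above the tRNAs, Mrpl18, Mrpl40 and Mrpl38 rose. Mrpl18 measured 71.8, 72.2 and 68.4 TPM in controls and 86.2, 81.0 and 89.9 TPM after co-culture, at a log2 fold change of 0.27 (SE 0.046, limma adjusted p = 0.00108). Mrpl46 (0.20), Mrpl48 (0.07) and Mrpl58 (0.12), a peptidyl-tRNA hydrolase that frees stalled ribosomes, did not pass. For Mrpl58 the libraries measured 40.4, 37.2 and 34.2 TPM and then 39.6, 43.4 and 38.8 TPM, with overlap. These groupings by place follow what is known of the structure and were made after the values were seen.

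The most abundant large-subunit transcripts were not those that rose most. Mrpl30 measured 118.4, 131.6 and 127.4 TPM in controls and 126.1, 143.4 and 133.0 TPM after co-culture (log2 fold change 0.09), and Mrpl42 measured 95.0, 102.2 and 99.4 TPM and then 100.02, 105.6 and 108.9 TPM (0.08). Neither passed the test, whereas Mrpl33, whose mean level lay between theirs, did (0.24, given above). The least abundant member, Mrpl19, measured 9.03, 8.96 and 8.65 TPM and then 10.8, 9.83 and 10.3 TPM, without overlap but at a limma adjusted p of 0.0742. The lowest value of the large subunit was that of Mrpl54, at 65.7, 75.3 and 74.0 TPM in controls and 55.5, 70.6 and 62.4 TPM after co-culture. It stood at -0.19 on the log2 scale (SE 0.081, limma adjusted p = 0.0927), and with batch as a block it passed the threshold (adjusted p = 0.0145). Mrpl32, known as a substrate of the m-AAA protease that matures it, was lower without overlap (57.2, 59.8 and 56.3 TPM, then 56.3, 55.7 and 54.7 TPM) at a log2 fold change of only -0.06, which did not pass.

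**Figure D3:**
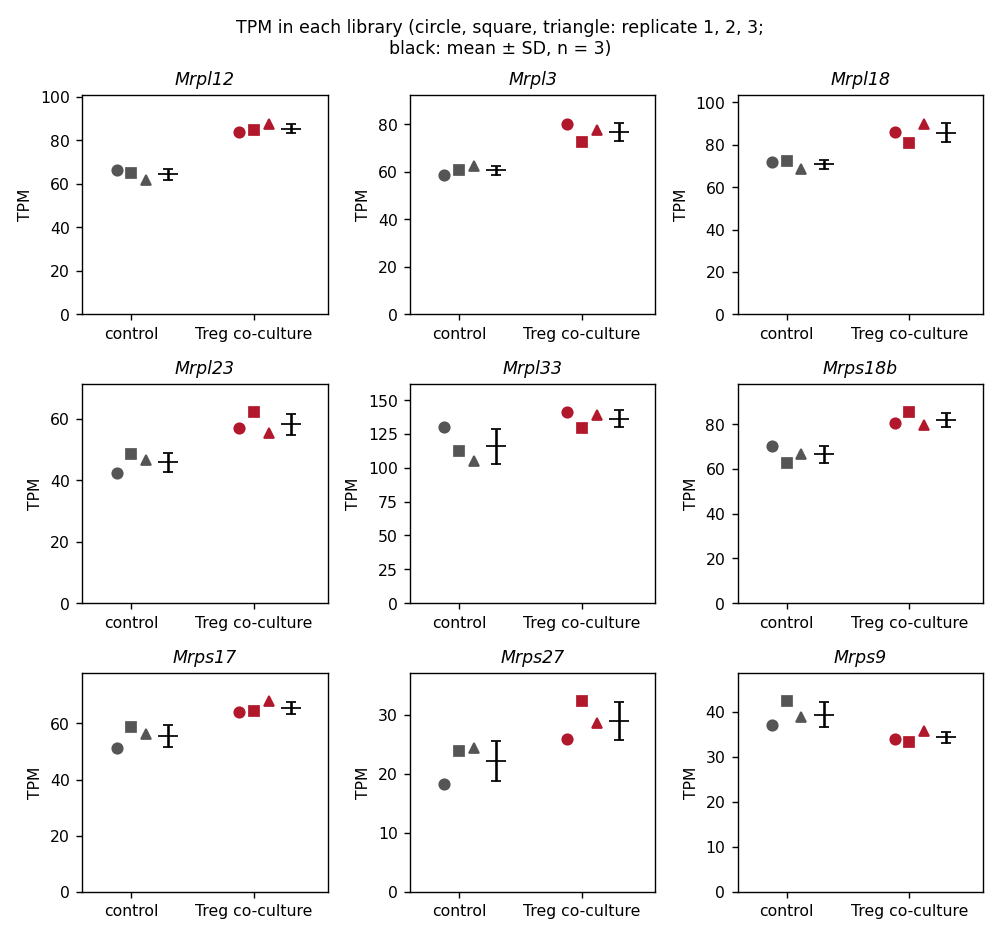
TPM in each library (y axis from 0, 1 panel per gene) for 9 members, with control in grey, Treg co-culture in red, a symbol for each replicate number and the mean and SD (n = 3). Mrpl12, Mrpl3, Mrpl18, Mrpl23, Mrps18b, Mrps17 and Mrps27 show no overlap in the higher direction, Mrpl33 overlaps, and Mrps9 is lower after co-culture.

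The small subunit binds messenger RNA and reads its codons. Of the 29 genes named Mrps, 8 rose, 1 fell and 20 did not pass the test, with a median log2 fold change of 0.11. Mrps27, a pentatricopeptide repeat protein, had the highest fold change of the small subunit. Its libraries measured 18.3, 23.8 and 24.4 TPM in controls and 25.9, 32.3 and 28.5 TPM after co-culture. The groups did not overlap, but co-culture library 1 lay close to control libraries 2 and 3. The log2 fold change of 0.37 had an SE of 0.110 (limma adjusted p = 0.0217), larger than that of Mrpl12. Mrps17, with a bacterial counterpart, measured 51.2, 58.8 and 56.4 TPM and then 64.3, 64.5 and 67.98 TPM, at 0.24 (SE 0.054, limma adjusted p = 0.00583).

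Mrps10, of the head of the subunit, rose by 0.28 (limma adjusted p = 0.0283). Mrps5, which lies where messenger RNA enters, went from 31.8, 35.3 and 31.3 TPM to 40.1, 39.0 and 36.2 TPM, at 0.22 (limma adjusted p = 0.0167). Mrps26 went from 30.4, 33.5 and 36.3 TPM to 44.8, 39.4 and 37.4 TPM, at 0.27 (limma adjusted p = 0.0212), with co-culture library 3 close to control library 3. Mrps2 also rose, at 0.22 (limma adjusted p = 0.0384), with overlapping groups.

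The 3 paralogs of Mrps18 are relatives of 1 bacterial protein, and 2 of them rose. Mrps18b, of the small subunit, measured 70.3, 62.5 and 66.6 TPM in the controls and 80.6, 85.2 and 79.6 TPM after co-culture. It did not overlap, at a log2 fold change of 0.30 (SE 0.049, limma adjusted p = 0.000973). Mrps18a, of the large subunit, measured 41.3, 52.5 and 47.8 TPM and then 58.4, 55.8 and 52.5 TPM, at 0.24 (limma adjusted p = 0.0370), and the groups overlapped at 52.5 TPM. Mrps18c, which takes the bacterial protein's place in the small subunit, measured 51.2, 49.5 and 51.8 TPM and then 48.5, 52.2 and 53.3 TPM, at 0.01 (limma adjusted p = 0.859). The difference between paralogs was not tested. The sources used here do not give the handling of reads that match more than 1 of them.

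Mrps9, a protein of the head that reaches towards the tRNA, was the 1 member that fell. It measured 37.0, 42.4 and 38.8 TPM in the controls and 34.0, 33.2 and 35.7 TPM after co-culture, or 39.4 ± 2.74 and 34.3 ± 1.28 TPM (SD, n = 3 each). All co-culture libraries were below all controls, at a log2 fold change of -0.19 (SE 0.059, limma adjusted p = 0.0269). The call was lost in fits without certain single libraries. The limma adjusted p was 0.0967 without control 2, 0.0532 without control 3, 0.0707 without co-culture 1 and 0.0867 without co-culture 2. The log2 fold change was -0.14, -0.20, -0.19 and -0.17 in that order, and these fits have fewer libraries. The abundant Mrps21 (93.4, 81.8 and 113.5 TPM, then 97.2, 103.6 and 90.7 TPM) and Mrps15 (75.3, 80.9 and 73.1 TPM, then 79.9, 76.0 and 80.3 TPM) overlapped and did not pass. Nor did Mrps30 (0.02), Mrps36 (0.06) or the least abundant small-subunit gene, Mrps25 (-0.02).

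Of the 22 rises, 7 (Mrpl12, Mrpl3, Mrpl18, Mrpl23, Mrpl53, Mrps18b and Mrps17) passed in all 21 alternative settings tried, and Mrpl10 passed in 7 of the 21. With any 1 library left out, 11 of the 22 still passed every time, these 7 and Mrpl40, Mrpl20, Mrpl47 and Mrpl38. The other 11 each lost the call without at least 1 library. Mrps27 lost it without control 1 (adjusted p = 0.0569) or co-culture 2 (0.0845), and Mrpl16 without control 1 (0.0513) or co-culture 3 (0.0595). Mrps10 lost it without control 1 (0.0583), co-culture 2 (0.0886) or co-culture 3 (0.0824), and Mrps26 without control 1 (0.0739), control 2 (0.0526) or co-culture 1 (0.0772). Mrps5 lost it without control 1 (0.0522), control 3 (0.061), co-culture 1 (0.0639) or co-culture 2 (0.0526). Mrpl33 lost it without control 2 (0.0679), control 3 (0.0696), co-culture 1 (0.0617) or co-culture 3 (0.0582). For Mrps18a the libraries were control 1 (0.1), control 3 (0.0688), co-culture 1 (0.112) and co-culture 2 (0.0882), and for Mrpl15 control 3 (0.106) and co-culture 1 (0.0938), 2 (0.0536) and 3 (0.0823). Mrpl35 was lost without any library but control 2 (adjusted p from 0.0708 to 0.125), Mrps2 without any but co-culture 1 (0.05001 to 0.134), and Mrpl10 without any of the 6 (0.0517 to 0.145).

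Sorted by where the proteins sit rather than by name, 15 of 51 large-subunit members rose (29.4%) and none fell, and 7 of 26 small-subunit members rose (26.9%) and 1 fell. In the large subunit, 11 of 29 proteins with a bacterial counterpart rose (37.9%), as did 4 of 22 mitochondria-specific ones (18.2%). Of all genes tested 19.8% rose, near the share of that mitochondria-specific class, and 18.0% fell. In the small subunit the shares were 4 of 16 (25%) and 3 of 10 (30%). Mrps18a and Mrps18b, although relatives of a bacterial protein, were counted as mitochondria-specific. Both rose, so the shares in each subunit depend on that placement. Median log2 fold changes of these classes lay close together, at 0.10, 0.09, 0.10 and 0.16 in that order, and differences between classes were not tested. In TPM, which corrects for length, the median member stood at 42.0 for Mrpl and 39.0 for Mrps genes, against 22.9 for all genes tested.

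Promoters were examined for what the members share in sequence. RefSeq start sites (GRCm38.p6) gave a window of 250 bases before and 50 after the start for 69 of the 78 members. The 4 stretches printed here (150 bases before the start site and 30 from it on) belong to the strongest rises of the large subunit, the highest fold change of the small subunit and the 1 member that fell. All are on the plus strand, 5′ to 3′, at chr11:120484487-120484666 for Mrpl12, chr9:105053118-105053297 for Mrpl3, chr13:99344636-99344815 for Mrps27 and chr1:42851083-42851262 for Mrps9. Capitals mark letters of the motifs for NRF1, ETS factors (the family of GABPA) or YY1, nuclear factors known for their sites in genes of mitochondrial proteins.
Mrpl12: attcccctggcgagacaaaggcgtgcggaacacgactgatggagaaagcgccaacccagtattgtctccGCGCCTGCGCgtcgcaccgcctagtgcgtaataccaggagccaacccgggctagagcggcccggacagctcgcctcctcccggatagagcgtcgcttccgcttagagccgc
Mrpl3: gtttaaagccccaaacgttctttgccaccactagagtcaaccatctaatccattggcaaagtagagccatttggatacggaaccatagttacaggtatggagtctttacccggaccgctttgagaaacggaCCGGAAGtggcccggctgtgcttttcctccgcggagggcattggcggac
Mrps27: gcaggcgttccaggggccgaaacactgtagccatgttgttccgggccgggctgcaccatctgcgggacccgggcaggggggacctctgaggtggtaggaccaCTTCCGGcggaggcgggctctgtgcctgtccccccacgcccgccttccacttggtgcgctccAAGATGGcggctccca
Mrps9: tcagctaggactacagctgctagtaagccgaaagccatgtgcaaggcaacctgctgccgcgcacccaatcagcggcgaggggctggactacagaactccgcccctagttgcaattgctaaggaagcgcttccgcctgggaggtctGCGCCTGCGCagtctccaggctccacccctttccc
Positions count the start site as 1 and the base before it as -1. The motif of NRF1 begins at position -81 in Mrpl12 and at -5 in Mrps9, read on the opposite strand in both. That of ETS begins at -19 in Mrpl3 and at -48 in Mrps27 (opposite strand), which also has the YY1 letters at 15. Both the member with the highest fold change and the 1 that fell thus held the NRF1 letters. A match describes letters only, and shows neither binding nor a cause.

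Over the 69 windows, searched on both strands, NRF1 letters (GCGCA and GCGC with any 1 base, N, between them) stood in 13 (18.8%). The shares were 11.6% of 9870 tested genes with a window and 5.19% of all 27025 genes with a window. ETS letters (CCGGAAG) stood in 26 (37.7%, against 20.3% and 9.93%) and YY1 letters (AAGATGG) in 13 (18.8%, against 8.38% and 7.28%). At least 1 of these motifs was in 43 windows (62.3%), against 34.9% of tested genes and 20.0% of all. The E-box CACGTG, the core letters that MYC and other factors read, was in 5 (7.25%, against 11.8% and 8.09%), GGGCGG, read by SP factors, in 34 (49.3%, against 69.7% and 38.2%), and TATAAA in 5 (7.25%, against 8.82% and 15.7%). None of these motifs contains another. Median GC content was 58.0% in members and 61.0% in tested genes. Of the members with a window, 10 of 20 that rose and 32 of 48 that did not pass had NRF1, ETS or YY1 letters, and this difference was not tested.

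**Figure D4:**
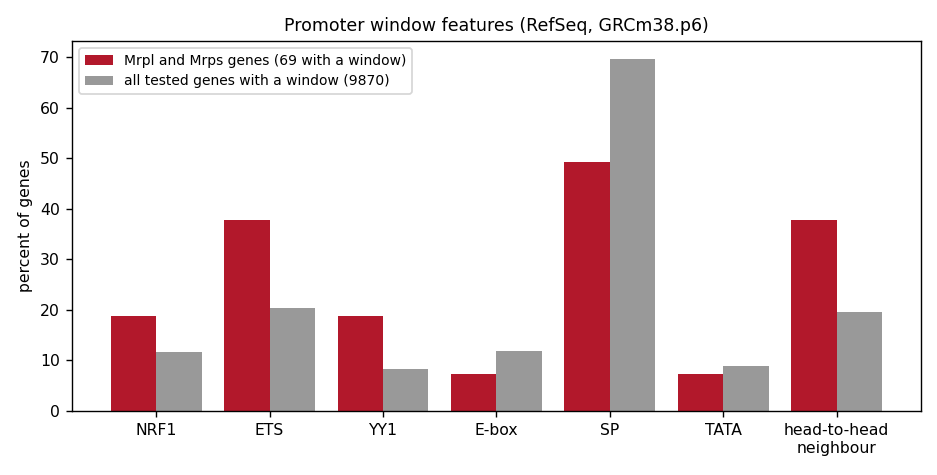
Share of genes (y axis, percent, from 0) whose promoter window holds each motif, or that have a head-to-head neighbour, for the 69 members (red) and the 9870 tested genes (grey) with a window. ETS letters were in 37.7% of member windows against 20.3% of tested genes, and GGGCGG in 49.3% against 69.7%.

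Many members have a neighbour that starts close by. For 26 of 69 members (37.7%) another gene starts within 1000 bases on the opposite strand and points away, against 19.6% of tested genes. Of their 24 partners tested, 7 rose and none fell, against 19.8% and 18.0% of all genes tested. In 4 pairs both genes rose, namely Mrpl18 with Tcp1, a subunit of the cytosolic chaperonin (both 0.27), Mrpl47 with Ndufb5, a complex I subunit (0.31 and 0.15), Mrps18b with Ppp1r10 (0.30 and 0.18) and Mrps27 with Ptcd2 (0.37 and 0.29). Partners also rose beside members that did not pass, namely Eme1 (0.79) by Mrpl27, Ncapd2 (0.46) by Mrpl51 and Ska3 (0.40) by Mrpl57. Conversely, Mrpl40 and Mrps5 rose beside partners that did not pass, Hira (0.09) and Zfp661 (-0.42). Mrpl46 and Mrps11 face each other, and neither passed. The gene spans of 20 members overlap another protein-coding gene, among them Mrpl18 with Tcp1, Mrpl53 with Ccdc142 and Mrps18a with Rsph9. The sources used here do not say whether counting used strand, so for these genes reads of both partners may have been mixed.

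Other genes of mitochondrial gene expression were described from lists in the same fit. Of 5 mitoribosome proteins with other names, 2 rose, Ptcd3 (0.34, limma adjusted p = 0.00161) and Aurkaip1 (0.16, adjusted p = 0.00918), and the list's median was 0.16. Of 15 translation factors 3 rose (20.0%, near the 19.8% of all genes) and none fell, led by the elongation factors Gfm1 (0.36, limma adjusted p = 0.000105) and Tufm (0.29). Of 28 assembly and rRNA modification factors 6 rose (21.4%) and none fell (1 without control 2), with rises of C1qbp (0.43, limma adjusted p = 0.000330), Fastkd2 (0.47) and Rcc1l (0.40). Of 13 genes of mtDNA transcription and replication 2 rose, the polymerases Polg (0.26) and Polrmt (0.28), and none fell. Of 20 mitochondrial aminoacyl-tRNA synthetases and related enzymes 4 rose, including Tars2 (0.39), Yars2 (0.36) and Mars2 (0.46), and 1 fell. The 1 that fell, named after its values were seen, was Fars2 (-0.38, limma adjusted p = 0.0260, and 0.0521 with batch as a block). Fars2 was also lost without control 2 (adjusted p = 0.101), control 3 (0.0527) or co-culture 2 (0.0856), which left none of the list lower, and without co-culture 1 only 2 of the list rose. In these last 4 lists the share that rose was 15.4% to 21.4%, near that of all genes, and the share that fell was 0% to 5%, against 18.0% of all genes. Polrmt did not pass without any 1 of the libraries control 1, control 2 or co-culture 1 to 3 (adjusted p from 0.0528 to 0.0992), and Mars2 did not without control 1, control 3, co-culture 1 or co-culture 2 (0.0541 to 0.0745).

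Of 10 nuclear regulators tested, 3 rose and none fell. Myc, a factor known to drive ribosome and mitochondrial genes, went from 50.7 ± 2.04 to 68.7 ± 4.95 TPM (SD, n = 3 each), at a log2 fold change of 0.43 (limma adjusted p = 0.000196). Pprc1 (0.20) and Hcfc1 (0.13) also passed, but Pprc1 was lost without control 1 (adjusted p = 0.0516), co-culture 2 (0.0653) or co-culture 3 (0.0682), and Hcfc1 without control 1 (0.0607), control 2 (0.0601), co-culture 1 (0.0587) or co-culture 3 (0.0708). The factors whose letters were counted in the promoters, Nrf1 (0.14), Gabpa (0.05) and Yy1 (-0.04), did not. Ppargc1a, the coactivator of mitochondrial biogenesis, was below the filter, with means of 0.627 TPM (control) and 0.580 TPM (co-culture).

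Among the transcripts that mitoribosomes translate, most of those called were lower. Of the 13 mtDNA-encoded subunits, 7 fell (53.8%, against 18.0% of all genes) and 1 rose (7.69%, against 19.8%). Their median log2 fold change was -0.06. COX1 went from 21190 ± 423 to 19080 ± 306 TPM (SD, n = 3 each), at -0.15 (limma adjusted p = 5.95e-05), ND4 fell by 0.09 on the log2 scale and ND1 rose by 0.08. The count of 7 that fell depends on the setting, at 2 without the filter and 1 without the mean-variance trend, and at 4 without co-culture 2 or without co-culture 3. It was 3 with quantile normalization, which gives COX1, the most abundant gene of all, the same value in every library and so cannot show a change in it. Without the trend ND4 and ND1 did not pass (adjusted p = 0.144 and 0.166).

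Of 79 nuclear oxidative phosphorylation subunits 23 rose (29.1%, against 19.8% of all genes) and 2 fell (2.53%, against 18.0%). The 2 that fell were Cox7a2l (-0.10) and Ndufa4l2 (-0.36), both named after their values were seen and both relatives of subunits caught by the symbol pattern. The rises were led by the ATP synthase genes Atp5b (0.23, limma adjusted p = 1.65e-05), Atp5g3 (0.29) and Atp5a1 (0.17), and the list's median was 0.07. The number that rose was 13 without the trend. The number that fell was 4 with batch as a block or without co-culture 2, and 1 without the filter, without the trend or without control 1, control 2, co-culture 1 or co-culture 3. Cox7a2l was lost without any 1 library but co-culture 2 (adjusted p from 0.0565 to 0.123).

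Of 78 cytosolic ribosomal proteins tested 23 rose (29.5%, against 19.8% of all genes) and 3 fell (3.85%, against 18.0%). Those that fell were Rpl17, Rpl23 and Rps27, at -0.06, -0.11 and -0.12. The list's median was 0.04, with rises such as Rpsa (0.12), Rpl8 (0.13) and Rps2 (0.11). The number that rose was 3 without the trend, 15 without the filter, 13 without co-culture 1 and 14 without co-culture 2. The number that fell was 8 with quantile normalization, 0 without the trend and 1 without the filter, without control 2 or without co-culture 3. Rpl17 was lost without any 1 library but control 3 (adjusted p from 0.0504 to 0.127), and Rps27 without control 2 (0.0971) or co-culture 3 (0.0729). Among the rises, Rpl8 was at 0.01 with quantile normalization (adjusted p = 0.610), and Rps2 did not pass without the trend (0.0672). Differences between these lists and the mitochondrial ribosomal proteins were not tested.

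**Figure D5:**
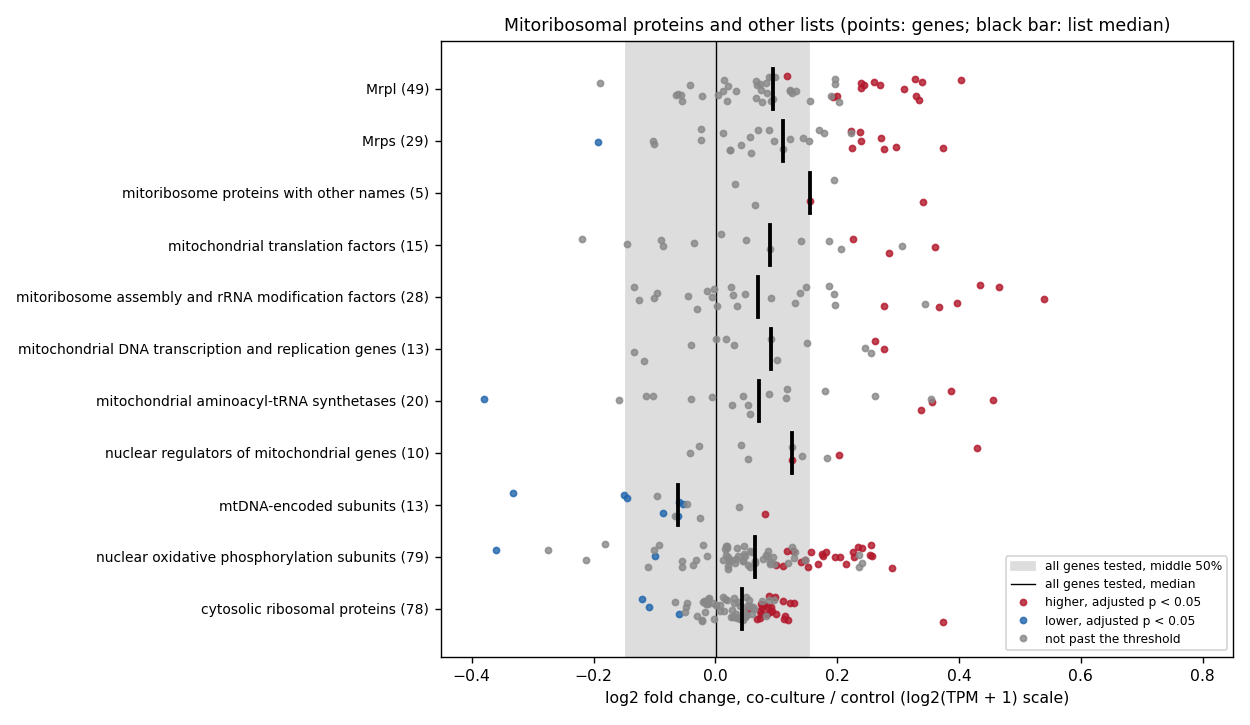
Log2 fold change (x axis, log2(TPM + 1) scale) of each tested gene in the Mrpl and Mrps groups and in 9 other lists, with a black bar at each list's median and a grey band over the middle 50% of all genes tested. Medians are above 0 in every list but the mtDNA-encoded subunits (-0.06).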

How the data were processed

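RNA sequencing of polyadenylated RNA gave 6 libraries in 2 groups of 3, grouped by the labels. The authors deposited TPM values, 1 column per library, per the file headers. Genome builds in the submitters' processing notes are GRCm38, GRCm39 and mm10, and their roles are not stated. Aligner, counter, annotation and strand setting: not given in the sources used here. TPM holds no depth, and as a share it ties each gene to the abundance of the rest.

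Gene numbers were named from RefSeq (GRCm38.p6; 21992 of 22186 matched, 99.1%). Values were taken as log2(TPM + 1), on which the changes of low genes look smaller. The 12405 genes that averaged 1 TPM or more were tested with limma 3.58.1 (R 4.3.3, lmFit, eBayes with trend) without a block, at a threshold of 0.05 after Benjamini-Hochberg adjustment over all of them. SE are moderated. The step was tested on simulated data, where the condition for passing covered only changes larger than that of any member. Python 3.11.15, pandas 2.3.3 and matplotlib 3.10.9 made tables and plots.

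Members, lists and tests were chosen with earlier results of these data known. Per subunit name, the rule named 5 members with the lowest adjusted p among those called in each direction without overlap, the highest and lowest fold changes, the 3 most and 1 least abundant, and Mrps18a, Mrps18b, Mrps18c, Mrps30, Mrps36, Mrpl12 and Mrpl58. Per list it named up to 3 called genes. Other genes were named after their values were seen. Macrophage (87.4 to 95.2 TPM in controls, 62.4 to 73.9 after co-culture) and endothelial markers (37.6 to 39.9 and 33.3 to 35.2 TPM) were also summed. Member proteins were not analysed here.

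Same-numbered libraries carry the same batch label, so the pairing comes from the labels. Deviations of same-numbered libraries correlated at 0.0115, -0.0146 and 0.00402. The replicate block was an alternative, with others listed in the closing section. Within groups libraries correlated at 0.994 or more, and at most 60 of 13935 genes had equal values in any pair.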

Additional observations from a re-analysis of the deposited data

How the results depend on the processing

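With batch as a replicate block, 11 Mrpl genes rose and 1 fell, and 9 Mrps genes rose and 1 fell, against 14, 0, 8 and 1 without it. Among the members and list genes followed through the settings, the pairing changed the calls of Mrpl10, Mrpl15, Mrpl35, Mrps22, Mrpl54 and Fars2, and no other. Neighbour genes such as Tcp1 and Ppp1r10 were not followed. Mrpl genes called lower numbered 1 with the block, 1 with the block without batch 2, 1 with the block without batch 3 and 1 at an adjusted p below 0.1. Of the 29 Mrps genes, 3 were called higher without the filter, 3 without the trend, 5 with the block without batch 1 and 2 at an adjusted p below 0.01. Of all genes tested, 13.4%, 17.1%, 15.9% and 13.1% were called higher in these settings, in that order. The Mrps share was below that of all genes in each of them except the block without batch 1. Mrps genes called lower numbered 0 without the trend, with the block without batch 1, with the block without batch 2 and at 0.01. The Mrps median was 0.1472 with the block without batch 2. At 0.01, 6 Mrpl genes were called higher, and 1626 genes higher and 1417 lower in all. Of the 78 members, 8 were called higher at 0.01, a smaller share than the 13.1% of all genes. None was called lower, against 11.4% of all genes. The larger share of rises among members than among all genes was thus not seen at 0.01. Leaving out each library gave 9 to 13 Mrpl genes higher and 0 to 1 lower. For Mrps genes it gave 3 to 8 higher and 0 to 2 lower. Of all genes, 2055 to 2245 were higher (16.6% to 18.1%) and 1840 to 1973 lower (14.8% to 15.9%). Medians were 0.0883 to 0.1298 for Mrpl and 0.0821 to 0.132 for Mrps genes. From 21 to 22 of the 22 rises were kept with quantile normalization, median-of-ratios scaling, robust estimation, a filter of 5 TPM, pseudocounts of 0.01 and 0.1, or rescaling that leaves out mtDNA-encoded and ribosomal protein genes. Fewer were kept without the filter (15), without the trend (14) and at 0.01 (8). The block kept 19, and the block without batch 1, 2 or 3 kept 13, 16 or 17. Without the trend the calls of Mrpl10, Mrpl20, Mrpl33, Mrps2, Mrps10, Mrps18a, Mrps26 and Mrps27 were lost. No member or list gene followed through the settings was called in opposite directions. The cause of the differences was not tested. Depth is unknown in TPM, and 3 libraries a group limit the precision.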
